A study of Mus musculus with 27 samples.

Results

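The 8 homeobox genes, Msx1, Msx2, Prrx1, Prrx2, Alx4, Dlx5, Dlx6 and Shox2, were measured in mouse limb bud mesenchymal cells and in cells labelled as later stages of cartilage formation. All probe sets annotated to 1 of these 8 genes and to no other gene were taken, by current symbol or older alias, which gave 12 of the 36701 probe sets on the arrays and 8 of 15964 genes. Prrx1 had 3 probe sets, Prrx2 and Shox2 had a pair each, and the other 5 genes had 1 each. No probe set named a member beside another gene.

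The arrays held RNA of 3 groups, 3 RNA samples in each (replicates 1, 3 and 4), hybridised to 3 array types (A, B and C), 27 arrays in all. The groups were multipotential mesenchymal cells (with no day given), day 1 chondroprogenitors and day 3 chondroblasts. No genotype, strain, age or added agent is given for any group; all came from limb bud tissue just under the distal ridge, have differentiation into chondrocytes in vitro given as the viability assay, and carry an estimated purity of 90 to 95% with fibroblasts as the contaminating cell. Nothing says that the RNA samples of a group were grown or collected apart, so the p-values here reflect variation among the samples given, and that variation may be technical. The mesenchymal samples are taken here as the start of the course, which the labels do not state. Below, the early comparison is day 1 against mesenchymal cells, the late comparison is day 3 against day 1, and the full-course comparison is day 3 against mesenchymal cells.

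Homeobox proteins bind DNA through a helix-turn-helix domain that reads short sites with a TAAT core, and these families pattern the limb and its skeleton. Msx1 and Msx2 are mainly transcriptional repressors that BMP signals switch on in limb mesenchyme and that are known for holding cells back from terminal differentiation. Prrx1 and Prrx2 mark early limb mesenchyme and act redundantly in limb bone growth, Shox2 is needed for the proximal limb bones and for chondrocyte maturation, Alx4 restrains the anterior limb bud, and the linked genes Dlx5 and Dlx6 act in the apical ridge and in cartilage.

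The 250 bases before the annotated start are shown for the 4 genes with a call below, so that the sites their own protein families can read are visible; every TAAT, on either strand, is in capitals. The sequences are RefSeq's (GRCm38.p6) and are given 5′ to 3′ along the gene: Msx1 is at chr5:37824586-37824835 (minus strand), Msx2 at chr13:53472781-53473030 (minus strand), Prrx1 at chr1:163313651-163313900 (minus strand) and Prrx2 at chr2:30845117-30845366 (plus strand).
Msx1: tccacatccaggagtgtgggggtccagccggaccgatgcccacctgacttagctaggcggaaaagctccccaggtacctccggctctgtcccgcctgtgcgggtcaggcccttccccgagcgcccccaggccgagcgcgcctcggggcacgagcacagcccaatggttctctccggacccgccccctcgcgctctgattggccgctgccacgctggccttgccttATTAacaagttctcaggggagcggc
Msx2: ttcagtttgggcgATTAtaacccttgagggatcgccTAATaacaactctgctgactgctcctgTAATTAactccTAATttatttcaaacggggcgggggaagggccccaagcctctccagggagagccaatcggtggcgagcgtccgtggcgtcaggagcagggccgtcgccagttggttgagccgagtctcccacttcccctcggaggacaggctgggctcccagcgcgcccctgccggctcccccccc
Prrx1: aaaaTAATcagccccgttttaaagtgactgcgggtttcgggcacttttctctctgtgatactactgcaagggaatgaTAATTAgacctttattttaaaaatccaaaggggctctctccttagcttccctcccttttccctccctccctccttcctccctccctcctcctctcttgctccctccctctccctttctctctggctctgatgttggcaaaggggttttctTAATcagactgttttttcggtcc
Prrx2: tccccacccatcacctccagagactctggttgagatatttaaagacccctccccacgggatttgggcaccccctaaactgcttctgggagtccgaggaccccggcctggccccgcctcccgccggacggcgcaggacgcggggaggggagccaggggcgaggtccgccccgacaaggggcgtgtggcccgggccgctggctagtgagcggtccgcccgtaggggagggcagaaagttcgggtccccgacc
The Msx2 stretch held 5 TAAT cores, Prrx1 held 4, Msx1 held 1 and Prrx2 held 0. The palindrome TAATTA, which carries a TAAT on each strand, occurred once in Msx2 and once in Prrx1. Over the 32851 upstream stretches of the same length in the table, 54.9% held TAAT and 4.84% held TAATTA. The GC-rich 6-mer GGCGCC, found in 9.59% of all stretches, was in none of these, and the GC content was 68.0% for Msx1, 61.6% for Msx2, 47.6% for Prrx1 and 70.0% for Prrx2, against a median of 52.4%. Of the 8 genes, 5 had a stretch in the table. The fifth, Shox2, held 1 TAAT and the 6-mer TATAAA, which 12.4% of all stretches hold. These matches describe letters only.

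Values below are MAS5 signals rescaled so that each array has a 2% trimmed mean of 500; they compare samples for 1 probe set, not genes with each other. Changes are differences of log2(signal + 50), which understate the change of dim probe sets, and were tested with limma over the 23545 probe sets whose mean reached 200 in at least 1 group, with Benjamini-Hochberg adjustment over all of them and a threshold of 0.05. Of the 12 member probe sets, 9 from 6 genes passed the signal filter; Alx4, Dlx6 and the dimmer Shox2 set did not. Between 41.9% and 48.1% of probe sets were below 200 in each sample. The 18S control averaged 19946 to 33264 in mesenchymal replicate 1, day 1 replicate 4 and day 3 replicate 4, against 1623 to 5631 in the other 6 samples. The called markers of the labelled course moved in its direction: of 17 cartilage matrix genes tested, 7 rose in the early comparison, 10 rose in the late one, and 0 fell in either. Over all genes, with 1 probe set each, 4.55% and 1.69% were called higher in these comparisons. The list held 19 genes, all on the arrays, but Col2a1 and Epyc had no probe set past the signal filter and were not tested. In such bulk RNA, fewer cells of a type and less RNA per cell cannot be told apart.

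At day 1 against mesenchymal cells, Msx1 and Msx2 rose, and 1 of 2 Prrx2 probe sets and 1 of 3 Prrx1 probe sets fell. These were 4 of the 9 probe sets tested, 2 higher and 2 lower, against a background of 4.79% of all probe sets called in either direction, 3.61% higher and 1.18% lower. At day 3 against mesenchymal cells Msx1 was higher and the array A set of Prrx2 lower, 2 of 9 against a background of 10.6% in either direction, 6.54% higher and 4.03% lower. Between day 1 and day 3 limma called 0 of 9, against a background of 1.61% (1.13% higher and 0.484% lower). An unadjusted limma p under 0.05 was found for 1 of 9, Msx2, and for 2549 of all 23545 probe sets. Day 3 and day 1 samples of the same number deviated together on array A, with correlations of 0.30 to 0.48. Differently numbered pairs of any groups reached 0.38 there. A fit of the 6 day 3 and day 1 samples with the replicate number as a block called 1 of 9, Msx2. It called 1162 of all 23545 probe sets. The same 6 samples without the block gave 477 calls, also with Msx2, and all 9 samples without the block gave 380. The day 3 minus day 1 difference had the same sign in all 3 same-numbered pairs for 6 of 9 member probe sets, against a background of 40% of all probe sets. All values of the compared groups lay apart for 5, 1 and 5 of the 9 probe sets in the early, late and full-course comparisons, where 23.3%, 18.6% and 27.6% of all probe sets did so. The members' median log2 changes in the same order were -0.24, -0.09 and -0.42, against -0.05, -0.03 and -0.08 over all probe sets. The early and full-course comparisons share the mesenchymal samples, and the early and late ones the day 1 samples. The moderated F test over the 3 groups called 3 of 9 (Msx1, Prrx2 on array A and the brightest Prrx1 set), against 8.95% of all probe sets.

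**Figure D1:**
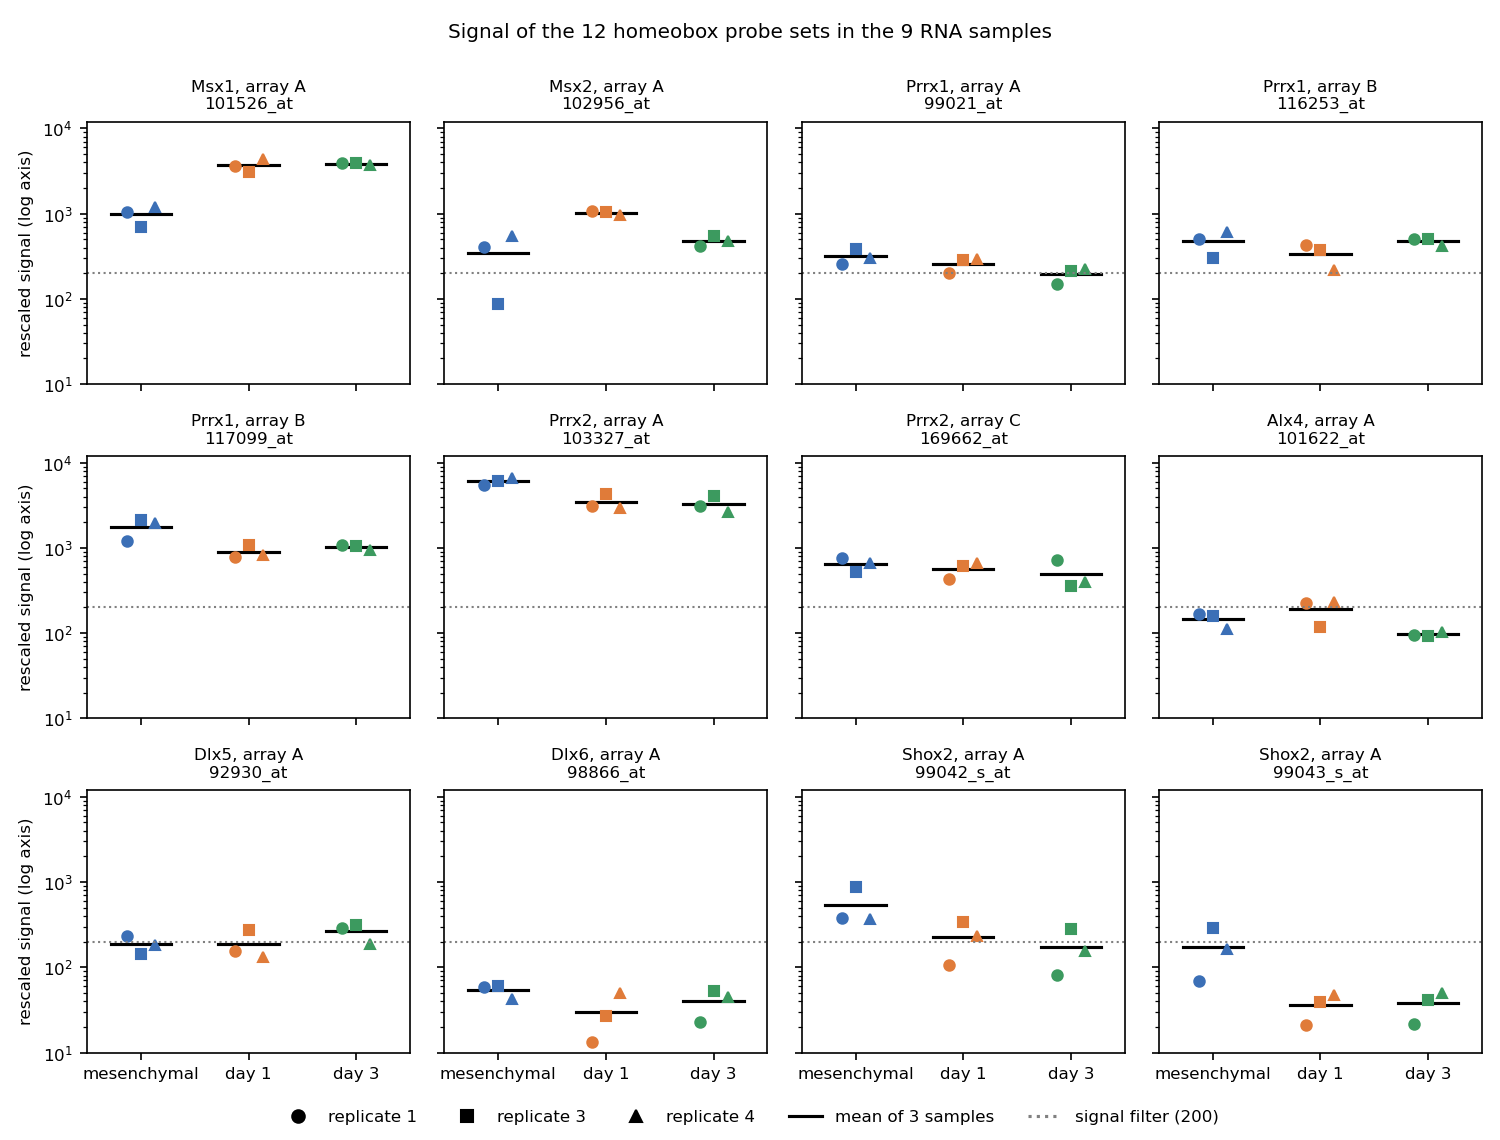
Rescaled signal (log axis) of each of the 12 probe sets in the 9 RNA samples, by group in time order; marker shapes are replicates, black bars are means of 3 samples, and the dotted line is the filter at 200. Msx1 was at 3093 or more in all day 1 and day 3 samples and at 1210.2 or less in mesenchymal cells, while all day 1 values of Msx2, 966 to 1088, lay above its other values and Alx4 and Dlx6 had group means under 200 throughout.

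Msx1 gave signals of 1059.8, 701 and 1210.2 in mesenchymal cells, 3589, 3093 and 4425 at day 1, and 3955, 3888 and 3704 at day 3 (probe set 101526_at, array A). Every day 1 and day 3 sample lay above every mesenchymal sample, and the day 3 samples lay inside the day 1 range. The mean of 3702 ± 673 at day 1 was 3.74 times that of 990.4 ± 261 in mesenchymal cells (SD, n = 3 each), a log2 change of 1.87 ± 0.20 (SE, limma adjusted p = 0.000183). The day 3 mean of 3849 ± 130.0 was 3.89 times the mesenchymal mean (1.94 ± 0.20, limma adjusted p = 5.97e-05). Day 3 against day 1 differed by 0.07 ± 0.20 (limma adjusted p = 0.948), with a 95% interval of -0.37 to 0.51. Within the scan batch that held both groups, the difference was 1.99 for 1 day 1 sample against 2 mesenchymal samples, and 0.06 for 3 day 3 against 2 day 1 samples. No scan batch of array A held both day 3 and mesenchymal samples; with the batch as a term in the fit the change was 2.05 (limma adjusted p = 0.00847). Both calls against mesenchymal cells held in 20 of 20 alternative analyses.

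Msx2 gave signals of 409, 88.2 and 546 in mesenchymal cells, 1088, 1036 and 966 at day 1, and 421, 546 and 478 at day 3 (probe set 102956_at, array A). All day 1 samples lay above all samples of both other groups, and the day 3 values overlapped the mesenchymal ones, of which replicate 3 was far the lowest. The day 1 mean of 1030.2 ± 61.5 was 2.96 times the mesenchymal mean of 348 ± 235 (SD, n = 3 each), a log2 change of 1.68 ± 0.42 (SE, limma adjusted p = 0.0384). The day 3 mean of 482 ± 62.7 differed from the day 1 mean by -1.03 ± 0.42, with a 95% interval of -1.93 to -0.12, and did not pass after adjustment (unadjusted p = 0.0292, limma adjusted p = 0.370). The same-numbered differences were -1.27, -0.87 and -0.95 for replicates 1, 3 and 4, and the call was made with the replicate number as a block and only the day 3 and day 1 samples in the fit (-1.03 ± 0.15, limma adjusted p = 0.00352), and also without the block in these 6 samples (limma adjusted p = 0.0169). Day 3 differed from mesenchymal cells by 0.66 ± 0.42 (limma adjusted p = 0.368). Over 20 alternatives this difference ran from 0.016, without mesenchymal replicate 3, to 1.22, and it passed in 1 (limma adjusted p = 0.0265). Within shared scan batches the differences were 2.18 for 1 day 1 against 2 mesenchymal samples and -0.99 for 3 day 3 against 2 day 1 samples.

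The Msx2 rise held in 10 of 20 alternatives. It was lost without day 1 replicate 1, 3 or 4 (limma adjusted p = 0.128, 0.120 and 0.0753) and without day 3 replicate 1 or 3 (0.0575 and 0.0573). It was also lost with the replicate block (0.0638), with the scan batch (0.0756) and without the variance trend (0.0698). The same held with only the 2 compared groups in the fit (0.0778) and without the 3 samples of highest 18S signal (0.0958). Without mesenchymal replicate 3, the dimmest sample, it shrank to 1.04 (limma adjusted p = 0.0239), and the day 3 against day 1 difference of -1.03 then passed (limma adjusted p = 0.0261).

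The paralogs were set against each other through the log2 difference Msx1 minus Msx2 in each sample. It averaged 2.88 ± 0.19 at day 3 and 1.78 ± 0.32 at day 1 (SD, n = 3 each), a difference of 1.10 with every day 3 sample above every day 1 sample. The exact 2-sided permutation test gave p = 0.1, the smallest that 3 against 3 samples allow, and 0.133 after adjustment over 12 such tests among Msx1, Msx2, Prrx2 and Shox2. At day 1 against mesenchymal cells the difference between their changes was 0.18 (exact permutation p = 0.7).

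**Figure D2:**
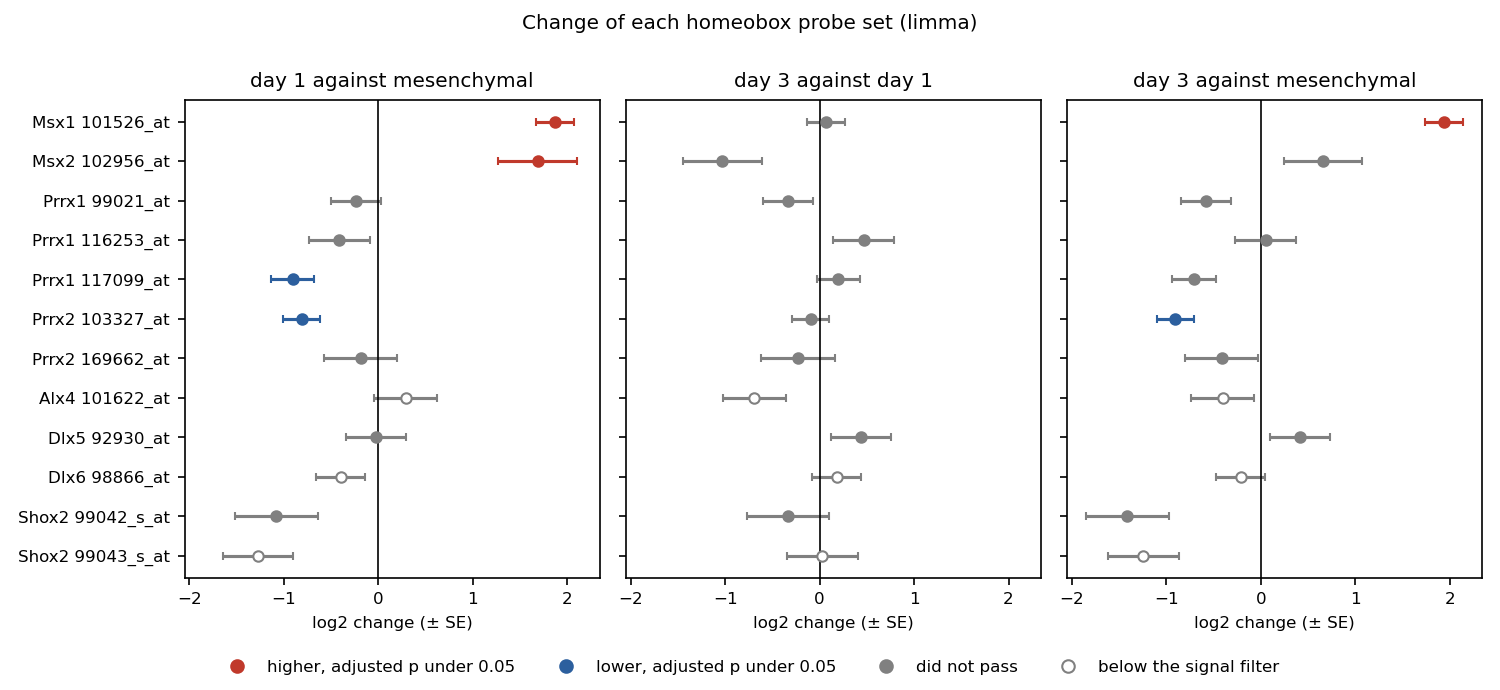
Log2 change with its limma standard error for each probe set in the 3 comparisons; filled points passed the signal filter, open points did not and come from a fit of all probe sets. Red marks Msx1 and Msx2 higher at day 1 and Msx1 higher at day 3 against mesenchymal cells, blue marks the array A set of Prrx2 lower in both and 1 Prrx1 set lower at day 1, and the middle panel has no coloured point.

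Prrx2 was brightest in the mesenchymal samples on array A. The array A probe set, 103327_at, gave 5397, 6109 and 6684 in mesenchymal cells, 3111, 4339 and 2973 at day 1, and 3079.6, 4059.8 and 2632 at day 3. All mesenchymal samples lay above all later samples, and the day 1 and day 3 values overlapped. The mean was 3475 ± 751 at day 1, against 6063 ± 645 in mesenchymal cells (SD, n = 3 each; log2 change -0.81 ± 0.20, limma adjusted p = 0.0350), and 3257 ± 730.3 at day 3 (-0.90 ± 0.20 against mesenchymal cells, limma adjusted p = 0.0111). Day 3 against day 1 differed by -0.09, with a 95% interval of -0.52 to 0.33 (limma adjusted p = 0.925). Within shared scan batches the differences were -0.87 for 1 day 1 against 2 mesenchymal samples and -0.16 for 3 day 3 against 2 day 1 samples.

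The day 1 call for Prrx2 held in 11 of 20 alternatives. Leaving out mesenchymal replicate 1, 3 or 4 gave limma adjusted p = 0.0543, 0.0905 and 0.0822, leaving out day 1 replicate 1 or 4 gave 0.142 and 0.105, and leaving out day 3 replicate 1 gave 0.0581. The scan batch gave 0.181, the fit without the variance trend 0.0832, and leaving out the 3 samples of highest 18S signal 0.0778. The day 3 call held in 19 of 20, all but the fit with the scan batch (-1.04, limma adjusted p = 0.157). The second Prrx2 probe set, 169662_at on array C, gave 759, 518 and 666 in mesenchymal cells, 429, 606 and 658 at day 1, and 719, 352 and 398 at day 3. Its groups overlapped, and its day 1 change of -0.19 has a 95% interval of -1.02 to 0.64, which includes the value of the array A set; within the scan batch of 3 day 1 samples and 1 mesenchymal sample it was 0.09.

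Prrx1 was measured by 3 probe sets that were not called alike. The brightest, 117099_at on array B, gave 1190.3, 2114 and 1943 in mesenchymal cells, 777, 1068 and 829 at day 1, and 1081, 1042 and 944 at day 3. All mesenchymal samples lay above all later ones. It fell at day 1 to a mean of 892 ± 155, against 1749 ± 492 in mesenchymal cells (SD, n = 3 each; -0.91 ± 0.23, limma adjusted p = 0.0359), and by -0.81 within the scan batch of 3 day 1 and 2 mesenchymal samples. Its day 3 mean of 1022 ± 70.5 differed from mesenchymal cells by -0.71 (limma adjusted p = 0.0649). This difference passed in 4 of 20 alternatives, among them the fit without mesenchymal replicate 1 (-0.96, limma adjusted p = 0.0108). On array B all day 3 samples and no others were in 1 scan batch, so batch and day 3 cannot be told apart there.

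The other Prrx1 probe sets did not pass in any comparison of the main fit. Set 99021_at on array A averaged 316 in mesenchymal cells, 259.8 at day 1 and 195 at day 3, with a day 1 change of -0.24 (95% interval -0.81 to 0.34) and a day 3 change against mesenchymal cells of -0.58 (limma adjusted p = 0.205). Its day 3 values, at most 225, all lay below its mesenchymal values, at least 256. That day 3 change passed in 1 of 19 alternatives (limma adjusted p = 0.0485). Set 116253_at on array B averaged 472, 339 and 476 in the same order, with changes of -0.42 and 0.05 against mesenchymal cells. Within shared scan batches the day 1 differences of these sets were -0.54 and -0.22. All 3 Prrx1 probe sets had a negative early change. The call of the brightest set held in 9 of 20 alternatives. It was lost without mesenchymal replicate 3 or 4 (limma adjusted p = 0.130 and 0.0966), day 1 replicate 1, 3 or 4 (0.156, 0.0579 and 0.0935) or day 3 replicate 1 or 3 (0.0573 and 0.0528). It was also lost with the scan batch (0.162) and without the variance trend (0.0939). The same held with only the 2 compared groups in the fit (0.0639) and without the signal filter (0.0540).

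Shox2 had its highest values in mesenchymal cells on both probe sets, and neither passed. Set 99042_s_at gave 379, 868 and 369 in mesenchymal cells, 107, 343 and 232 at day 1, and 80.3, 278 and 154 at day 3 (array A). Replicate 3 was the highest sample of each group, and no day 1 or day 3 sample reached the lowest mesenchymal one. The changes were -1.08 ± 0.44 at day 1 (limma adjusted p = 0.207) and -1.41 ± 0.44 at day 3 (limma adjusted p = 0.0599) against mesenchymal cells, with a 95% interval of -2.37 to -0.46 for day 3. Within shared scan batches the differences were -1.996 for 1 day 1 against 2 mesenchymal samples and -0.69 for 3 day 3 against 2 day 1 samples, and the batch term gave -2.69 for day 3 against mesenchymal cells (limma adjusted p = 0.0702). The day 3 difference from mesenchymal cells passed in 4 of 20 alternatives. Among them were the fits without day 1 replicate 1 (limma adjusted p = 0.0496), without day 3 replicate 3 (-1.75, limma adjusted p = 0.0494) and with the replicate block (limma adjusted p = 0.0117). Set 99043_s_at gave 69.3, 292 and 165 in mesenchymal cells, 21.2, 39.2 and 47.2 at day 1, and 21.8, 41.6 and 50.03 at day 3. It lay below the filter; in a fit of all probe sets it differed by -1.28 at day 1 and -1.24 at day 3 against mesenchymal cells (limma adjusted p = 0.108 and 0.0737). Mesenchymal replicate 3 was thus the brightest sample for both Shox2 sets and the dimmest mesenchymal sample for Msx1 and Msx2.

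Alx4, Dlx5 and Dlx6 were dim. Alx4 gave 166, 158 and 111 in mesenchymal cells, 227, 119 and 233 at day 1, and 95.3, 91.2 and 103 at day 3 (probe set 101622_at). Its day 3 values lay below all others, close together, but it was below the filter; in the fit of all probe sets day 3 differed from day 1 by -0.69 (limma adjusted p = 0.630) and from mesenchymal cells by -0.40 (limma adjusted p = 0.554). Dlx5 gave 234, 141 and 182 in mesenchymal cells, 153, 276 and 131 at day 1, and 291, 317 and 189 at day 3 (probe set 92930_at). It passed the filter only through the day 3 mean of 266 ± 67.5 (SD, n = 3), its groups overlapped in every comparison, and day 3 differed from mesenchymal cells by 0.42 (95% interval -0.27 to 1.11, limma adjusted p = 0.462). Dlx6, its chromosomal neighbour, stayed between 13.5 and 60.0 in all 9 samples (probe set 98866_at), and its early, late and full-course changes of -0.40, 0.18 and -0.21 did not pass in the fit of all probe sets.

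**Figure D3:**
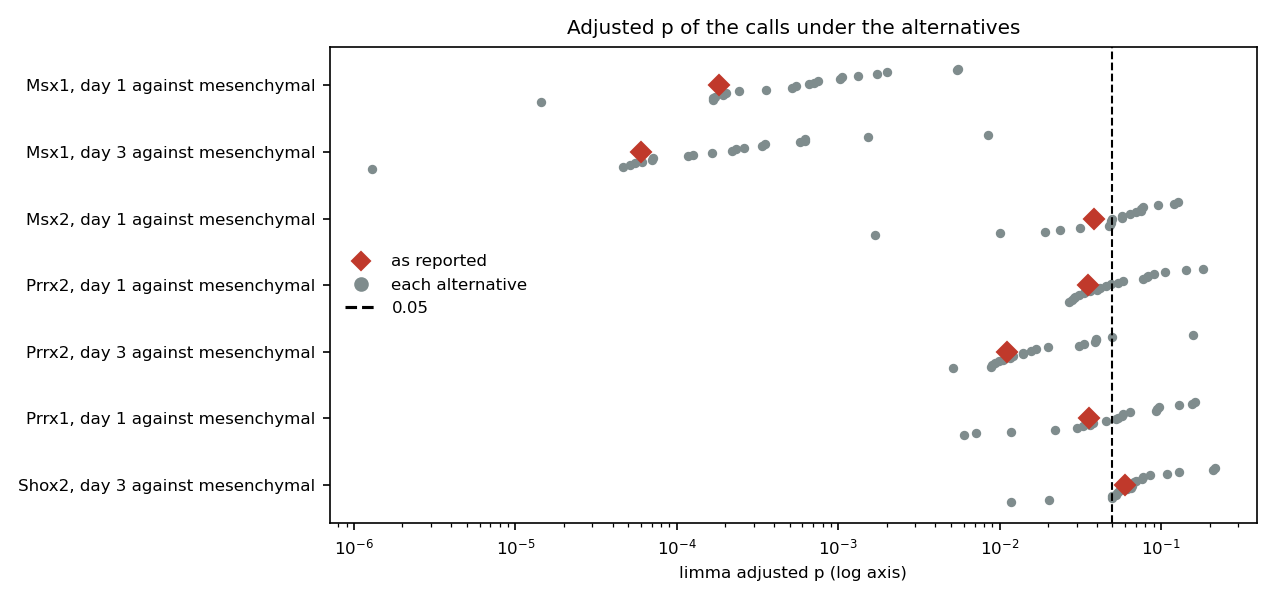
Limma adjusted p (log axis) of 6 calls and of the Shox2 difference, as reported (red diamonds) and under each alternative analysis (grey points), with the threshold of 0.05 as a dashed line. All points of both Msx1 calls lie left of the line, between 1.29e-06 and 0.00847, while the day 1 calls of Msx2, Prrx2 and Prrx1 have points on both sides.

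Gene lists of the same tissue give the setting for these changes; each gene is represented by 1 probe set. Of 17 related homeobox genes, 13 were on the arrays and 5 were tested, with none higher and none lower in any comparison (0 calls by limma in each, median -0.44 at day 1 against mesenchymal cells). Among them Dlx3, a ridge and skeletal Dlx gene, averaged 256 at day 1, against 139.7 in mesenchymal cells, and 103 at day 3 (0.80 ± 0.51 at day 1, limma adjusted p = 0.449). Pitx1, a hindlimb identity factor, averaged 1391 at day 1, against 1878 in mesenchymal cells (-0.44, limma adjusted p = 0.368).

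Of 35 other limb transcription factors 28 were tested, and 4 rose and 3 fell in the early comparison (median 0.10), 0 rose and 1 fell in the late one (-0.38), and 3 rose and 5 fell over the full course (-0.18). Of all represented genes 5.91% were called in the early comparison (4.55% higher, 1.36% lower), 2.32% in the late one (1.69% higher, 0.63% lower) and 13.5% over the full course (8.67% higher, 4.8% lower). Osr1, an odd-skipped zinc finger gene of connective tissue and joints, rose by 3.80 and Lmx1b, the dorsal limb factor, by 2.01 at day 1. Hand2, the posterior limb factor, fell to 308 at day 1, against 1059 in mesenchymal cells (-1.65 ± 0.22, limma adjusted p = 0.000982). Pbx2, a homeobox cofactor gene, fell by 0.95 at day 3 against day 1 (limma adjusted p = 0.0169).

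The BMP list, which holds the signals that induce Msx genes, had 24 of 29 genes tested. In the early comparison 7 rose and 1 fell (median 0.64), in the late one 0 rose and 4 fell (-0.33), and over the full course 5 rose and 1 fell (0.21). The ligand gene Bmp4 rose to 1539.6 at day 1, against 577 in mesenchymal cells (1.36 ± 0.19, limma adjusted p = 0.00115), and was at 2148 at day 3. Bmp7 rose to 2601 at day 1, against 314 in mesenchymal cells (2.86), and fell by 0.97 at day 3 against day 1 (limma adjusted p = 0.0384). Gdf5 and Smad6 rose by 3.45 and 1.48 at day 1 (limma adjusted p = 8.84e-07 and 0.000356). Their changes of -0.80 and -0.44 at day 3 against day 1 did not pass (limma adjusted p = 0.0667 and 0.354). Bmp2 averaged 227 in mesenchymal cells, 659 at day 1 and 76.8 at day 3. Its early change of 1.39 did not pass (limma adjusted p = 0.0578), and it fell by 2.48 at day 3 against day 1 (limma adjusted p = 0.00541). Id1, a helix-loop-helix inhibitor gene that BMP signals induce, averaged 3147, 5989 and 2693 in the same order, rising by 0.91 at day 1 (limma adjusted p = 0.0379) and falling by 1.13 at day 3 against day 1 (limma adjusted p = 0.0255). Set beside these, Msx1 had changes of 1.87 and 0.07 and Msx2 of 1.68 and -1.03 in the same 2 comparisons. The part of the BMP genes in the Msx changes was not tested. The type II receptor gene Acvr2b fell by 0.99 at day 1 against mesenchymal cells (limma adjusted p = 0.00382).

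**Figure D4:**
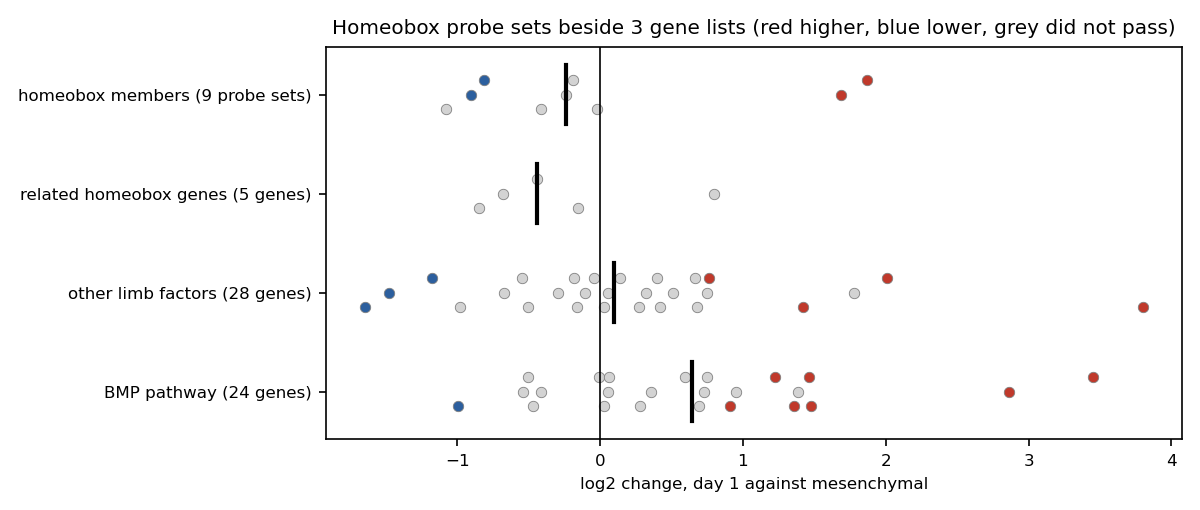
Log2 change at day 1 against mesenchymal cells for the 9 tested homeobox probe sets and for 3 lists of other genes; each point is a probe set or gene, black bars are medians, and red and blue mark those past the threshold. Msx1 and Msx2 are the red points of the top line, none of the 5 related homeobox genes passed, and the BMP list has 7 red points and 1 blue one.

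Cartilage and bone regulators had 15 of 29 genes tested, of which 5 rose and 0 fell in the early comparison (median 0.53), 1 rose and 2 fell in the late one (-0.15), and 6 rose and 0 fell over the full course (0.62). Sox9, the factor that starts the cartilage programme, averaged 2399.8 in mesenchymal cells, 6981 at day 1 and 3774 at day 3, a fall of 0.87 at day 3 against day 1 (limma adjusted p = 0.0321). Its probe set is on array B, where scan batch and day 3 cannot be told apart. The 17 cartilage matrix genes tested, of 19, had median changes of 0.69, 1.58 and 3.08 in the early, late and full-course comparisons.

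Markers of other cell types moved over the same samples. Of 24 fibroblast and connective tissue genes on the arrays 20 were tested, and 6 rose and 0 fell in the early comparison, 8 rose and 0 fell in the late one (median 1.17), and 15 rose and 0 fell over the full course; their summed signal was 10429 to 12032 in mesenchymal cells, 20359 to 22762 at day 1 and 54015 to 61679 at day 3. Of 11 endothelial genes tested 0 rose and 5 fell in the early comparison, with a summed signal of 3406 to 5487 at day 1, against 7332 to 8471 in mesenchymal cells. Of 11 blood cell genes tested 0 passed in the early comparison, where the sums of 10427 to 118823 at day 1 overlapped those of 117633 to 255845 in mesenchymal cells. Over the full course 2 blood cell genes rose and 6 fell, with sums of 8563 to 21603 at day 3. The part of these lists in the homeobox results was not tested. Of 7 muscle precursor genes tested 0 passed in the early comparison and 1 rose over the full course, with summed signals of 2313 to 3646 in mesenchymal cells, 2354 to 3745 at day 1 and 3118 to 4973 at day 3.

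The ectoderm and ridge list matters for Msx2, Dlx5 and Dlx6, which the ridge also expresses. Of its 30 genes 21 were tested, and 2, Krt19 and Cd9, rose in each comparison, while none fell. The summed signal of the 21 was 10562 to 13780.1 at day 1, against 13857 to 14464 in mesenchymal cells, and 13906 to 17894 at day 3; the list's part in the Msx2 result was not tested. On array A the probe sets of Fgf8, Krt14, Epcam and Wnt7a, defining genes of ridge and ectoderm, gave at most 26.7, 133, 51.5 and 46.5 in any sample, and Trp63 at most 297. Other genes of the list were brighter on array A. In mesenchymal cells, at day 1 and at day 3, Cdh1 averaged 767, 456 and 448, Fgf4 634, 591 and 384, and Jup 558, 510 and 508. On array C a second Fgf8 probe set gave 321 to 1642. Epcam had 3 probe sets there, which gave 1012 to 2485, 1254 to 2814 and 45.0 to 184. The array C probe sets of Krt14 and Trp63 gave 14.9 to 244 and 31.4 to 420, and those of Wnt7a gave 21.1 to 161 and 49.5 to 179.

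The genes whose log2 signal over the 9 samples was most like each member's are named as a description; all points share the same 9 samples and 3 groups. For Msx1 they were Dab2 (Pearson r = 0.984), Glb1 (0.982) and Rnd3 (0.977), with full-course changes of 1.93, 1.54 and 1.30. For Msx2 they were Ube3b (0.966), Pam16 (0.956) and Trp53bp1 (0.954). For Prrx2 they were Hmgb2 (0.969), Fen1 (0.964) and Aurka (0.962), a chromatin, a replication and a mitosis gene, with full-course changes of -1.21, -1.41 and -0.58. For Shox2 they were Lmnb1 (0.943), Zfp511 (0.938) and the limb Hox gene Hoxd9 (0.929). Prrx1, taken by its array A set, was followed by 1700003F12Rik, Cenpa and Ddx41 (0.943, 0.943 and 0.940), and Dlx5 by Tceal1, Ccdc90b and Mmp16 (0.940, 0.928 and 0.914).

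Coding genes next to the members on the chromosome were also read, and were chosen by position after the members' values were seen. Msx1 lies on mouse chromosome 5 between Cytl1, which encodes a secreted cartilage protein, and the syntaxin gene Stx18. At day 1 against mesenchymal cells Cytl1 rose by 4.57 ± 0.39 (limma adjusted p = 4.85e-06) and Stx18 by 0.81 ± 0.18 (limma adjusted p = 0.0239). Cytl1 rose again by 3.13 at day 3 against day 1, where Msx1 had a change of 0.07. Shox2, on chromosome 3, has the pentraxin gene Ptx3 on one side, which rose by 1.55 at day 1 and by 2.11 at day 3 against mesenchymal cells, and Rsrc1 on the other, with changes of -0.11 and 0.05 that did not pass. The neighbours of Prrx2 on chromosome 2, Asb6 and Ptges, had changes of -0.40 and -0.07 at day 1 against mesenchymal cells and did not pass. Of the Alx4 neighbours, Ext2 rose by 0.79 at day 3 against mesenchymal cells (limma adjusted p = 0.0217), and Cd82 did not pass (-0.69, limma adjusted p = 0.0691). Sem1, next to Dlx6, had a change of -0.22 there and did not pass. No neighbour of Msx2 or Prrx1 was tested.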

How the data were processed

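Groups and replicates came from the sample titles. The deposited values are 1 intensity (MAS5 signal, linear scale) per probe set and array, per the submitters' processing notes; for MAS5 itself, version and options: not given in the sources used here. All arrays were brought to the same 2% trimmed mean (500) before taking log2(signal + 50). Control probe sets (198) were left out. Probe sets with a mean of 200 or more in at least 1 group (23545) were analysed with limma 3.58.1 under R 4.3.3 (lmFit, eBayes with a trend), in 1 fit of 9 samples per array type, with Benjamini-Hochberg adjustment over all 3 types. The steps were tested on simulated data. Dim member probe sets were taken from a fit of all probe sets.

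Gene symbols came from GEO's platform annotation, updated through Entrez identifiers; 29131 probe sets had 1 gene, 724 several and 6846 none. All member probe sets are named. Other genes are represented by 1 probe set (array A before B before C, then the highest mean); up to 4 per list and comparison with the smallest adjusted p, Sox9 and Hand2, and the 3 most alike per member could be named. The ridge and ectoderm genes given by level and the chromosomal neighbours were chosen after values were seen. Members and 10 gene lists were chosen with earlier results of these data known. Scan batches are arrays of 1 type scanned on the same day per the file headers. No label says what a replicate number marks. Deviations from the group means of same-numbered day 3 and day 1 samples correlated at 0.30 to 0.48 on array A. All 3 pairs were above 0.1, so the numbers were taken to pair these samples there. On arrays B and C the correlations were 0.03 to 0.21, above 0.1 in 4 of 6. Same-numbered pairs with mesenchymal samples reached at most 0.10 and were not taken as pairs. Differently numbered pairs of any groups on array A ran from -0.39 to 0.38. Mesenchymal replicate 1 correlated there at 0.37 with day 1 replicate 4 and at 0.32 with day 3 replicate 4. These are the 3 samples with the highest 18S signal. What the correlations reflect was not tested. The number of arrays limits the precision. The alternatives were other pseudocounts, filters, normalization, blocks, weights, samples in the fit and each sample left out; leaving out the 3 samples with the highest 18S signal, and the replicate block over day 3 and day 1 samples alone, were chosen after seeing the data.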

Additional observations from a re-analysis of the deposited data

How the results depend on the processing

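Over 21 alternative analyses, 543 single probe set values were recomputed: 487 kept their direction and side of the threshold, 31 lost a call, 13 gained one and 12 changed sign, all 12 without a call. At day 1 against mesenchymal cells the 4 calls became 1 with the scan batch as a block, 1 without a variance trend, 2 without the 3 samples of highest 18S signal and 2 with only the compared groups in the fit, and 1 to 4 with 1 sample left out. At day 3 against day 1 the 0 calls became 1 (Msx2) with only the compared groups, 1 (Msx2) with these groups and the replicate block, and 0 to 1 with 1 sample left out. At day 3 against mesenchymal cells the 2 calls became 1 with the scan batch, 6 with array weights and 4 without the 18S samples, and 2 to 4 with 1 sample left out. The 3 calls of the F test became 1 without the trend and 1 to 3 with 1 sample left out; the F test with the scan batch was not run, because day 3 had a batch of its own on array B. Signs turned for the Dlx5 early change (0.10 with quantile normalization, 0.27 with array weights, 0.29 without the 18S samples, and -0.28 to 0.15 with 1 sample left out), the early change of Prrx2 on array C (0.094 with the scan batch), the late change of Msx1 (-0.022 with quantile normalization, -0.050 to 0.20 with 1 sample left out), the late change of Prrx2 on array A (-0.26 to 0.074) and the full-course change of the Prrx1 set 116253_at (-0.20 to 0.25). The cause was not tested. In the fit of all 9 samples the replicate block gave 3, 0, 3 and 3 calls in the 3 comparisons and the F test; it ended the early Msx2 call (limma adjusted p = 0.0638) and made one for Shox2 at day 3 against mesenchymal cells (0.0117). The replicate block with only the day 3 and day 1 samples, chosen after seeing the data, made the late Msx2 call (0.00352) and changed no other. Over all probe sets the 1128, 380 and 2489 calls became 566, 278 and 1143 with the scan batch, 2005, 1131 and 4246 with array weights, and, with 1 sample left out, down to 555 (without day 1 replicate 1), 167 and 1457 (both without day 3 replicate 1). The replicate block gave 911, 258 and 1998.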
